A study of Bos grunniens and Bos grunniens x Bos taurus with 6 samples.

Results

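Proteasome genes were read in single-cell RNA libraries of yak testis as all symbols that begin with PSM, a letter from A to G and a number, with at least 20 UMIs (unique molecular identifiers, 1 per captured RNA molecule) over the 6 libraries. The pattern matched 41 symbols, and 40 of the 26961 features met the minimum. PSMB11, a thymus subunit, had 7 UMIs and stayed out. Of the 40, 38 were grouped as parts of the proteasome or of its assembly and regulation. PSMC3IP, a factor of meiotic recombination, and PSME3IP1 are not subunits and were grouped as matched by name only. By role, the 40 held 5 genes of the alpha ring, 6 of the beta ring, 2 immune catalytic subunits, the testis subunit PSMA8, 6 ATPases and 10 other subunits of the regulatory particle, 2 chaperones of that particle, 1 chaperone of the core, 5 activators and inhibitors, and the 2 matched by name only. PSMA4, PSMA7, PSMB6, PSMB9, PSMD6, PSMD9, PSMG1, PSMG3 and PSMG4 were not analysed here.

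The proteasome is the barrel-shaped protease that degrades proteins tagged with ubiquitin. Its core is built of alpha rings, which gate the entrance, and beta rings, which hold the cutting sites, and a regulatory particle with ATPases unfolds the substrate. Interferon induces catalytic subunits (PSMB8, PSMB9, PSMB10) that replace PSMB5, PSMB6 and PSMB7 and favour peptides for antigen presentation, together with the activator PSME1-PSME2. Male germ cells make PSMA8, an alpha subunit that takes the place of PSMA7 in the testis proteasome and is needed for meiosis in the mouse.

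Testis was sampled at prepubertal age (6 months, replicates 1 and 2), in adolescence (18 months, replicates 3 and 4) and past sexual maturity, the last with a 4-year-old yak (replicate 5) and a cattle-yak of no stated age. A cattle-yak is the hybrid of domestic cattle and yak, and its males are known to be sterile. Frozen tissue was thawed, digested with enzymes and cultured in medium before loading. The labels tag the samples as germ cells, but somatic classes made up much of every library. Nothing states that replicates were separate animals, so the spread behind the p-values may be technical. In the age comparison it is the spread between libraries of the same age. In comparisons of classes within libraries it is the spread of the class difference from library to library. Libraries held between 9575446 and 24762829 UMIs, and 29243 of 40564 barcodes were kept, with medians of 1467 to 2074 UMIs per cell. Any 2 libraries shared between 5 and 16 barcodes. The libraries of 18 months stood apart from each other: as a share of the UMIs, 4 of the 40 proteasome genes were over 2-fold higher in replicate 3 than in replicate 4 and 0 lower, where 44.2% and 3.34% of all 14679 genes were. The median ratio was 1.18 for the proteasome genes and 1.84 for all genes.

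Classes were gated on marker RNA without any proteasome gene. A cell joined a class when it carried at least 2 of its markers and at least 1 more than of any other class, which placed 18556 cells, between 56.5% and 74.3% of each library. The names are therefore names of gates. Stroma-gated, endothelial-gated, mural-gated and lymphocyte-gated cells had their own marker list at least 2.60-fold above every other class of the same library. The germ gates were less clean. In spermatocyte-gated cells at 18 months the spermatogonium marker UCHL1 stood at 1458 and 3727 CPM (the usual count unit of abundance, here a gene's UMIs scaled to the sum of its class) against 375 at 4 years, and CCNA1, of later meiosis, at 50.8 and 35.7 against 338. Their median depth was 12921 and 10092 UMIs, against 4400 at 4 years. HORMAD1, a spermatocyte marker, reached 504 to 966 CPM in macrophage-gated cells and 42.7 to 275 in spermatocyte-gated cells. In spermatogonium-gated cells at 6 months (40 and 26 cells) the Sertoli list summed to 2718 and 7119 CPM. The part of these markers in the results below was not tested. AMH, CLDN11, COL1A1, CD3E, CYP17A1, INSL3, LHCGR and PRM1 are among the markers not analysed here, and a Leydig class was too small to use.

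Across whole libraries PSMA8 varied most of the 40 genes and PSMB1 least. PSMB1, a beta-ring subunit, ran from 336 CPM in replicate 1 of 6 months to 479 at 4 years, a 1.43-fold range. The median range was 2.11-fold for the beta ring, 2.80-fold for the alpha ring, 2.26-fold for the ATPases and 3.00-fold for the other subunits of the regulatory particle. PSMA8 spanned 71.8-fold, from 1.46 CPM in replicate 2 of 6 months to 105 at 4 years. PSMC3IP followed with 14.1-fold (0.477 to 6.73 CPM). PSMB5, which carries the chymotrypsin-like site, spanned 9.51-fold, and its immune counterpart PSMB8 6.91-fold. Whole-library sums mix cell types, so fewer cells of a type and less RNA per cell cannot be told apart in them.

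**Figure D1:**
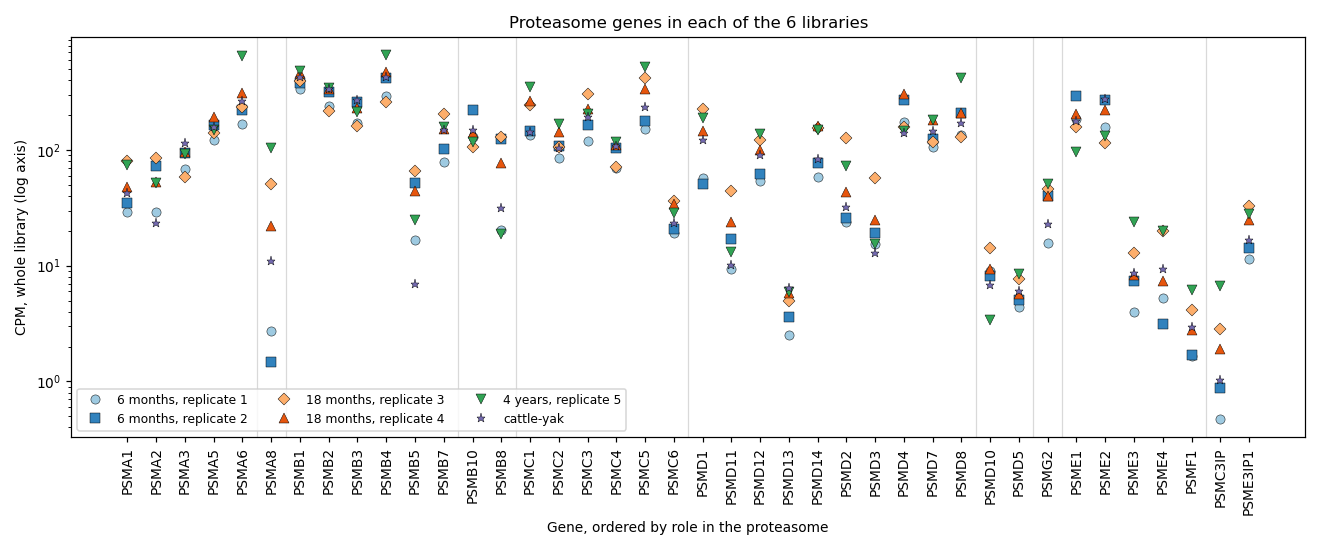
Whole-library levels of the 40 genes in the 6 libraries, on a log axis of CPM, with 1 point per library and gene, and genes ordered by role. PSMA8 shows the widest spread, from 1.46 to 105 CPM, while PSMB1 stays between 336 and 479.

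Levels also varied by class. The summed level of the constitutive core and regulatory genes had a median over libraries of 2837 CPM in stroma-gated cells (2333 to 4362), 2910 in lymphocyte-gated, 3795 in mural-gated, 4270 in Sertoli-gated, 4325 in endothelial-gated, 6233 in spermatogonium-gated and 6588 in spermatocyte-gated cells (5243 to 7383). Spermatogonium-gated sums began at 5061, above the highest stromal value, whereas stromal and Sertoli-gated sums (2873 to 6592) overlapped. Each class was tested against stroma-gated cells of the same libraries, so these comparisons share their reference. Differences are log2 values from edgeR's quasi-likelihood test with library as a block, called at a Benjamini-Hochberg adjusted p below 0.05 over all genes tested. The test returns no standard error. The values after ± were worked out as the absolute difference divided by the square root of the test's F statistic, and are approximate.

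Sertoli-gated cells, the supporting cells of the seminiferous tubule by their markers, had higher levels of 22 of 38 tested genes, where 24.3% of all 9560 genes were higher, and lower levels of 2, where 25.8% of all genes were lower (5 libraries). The median difference was 0.84 for the proteasome genes and -0.11 for all genes. All 6 beta-ring genes, 4 of 5 alpha-ring genes, 5 of 6 ATPases and 6 of 10 other regulatory subunits were higher. PSMD4, the subunit that binds ubiquitin chains, led at 2.50 ± 0.21 (adjusted p = 8.51e-07). Its Sertoli-gated levels were 256 and 476 CPM at 6 months, then 314 and 492 at 18 months, with 524 in the hybrid, against stromal levels of 78.3, 105, 105, 92.1 and 133. Every Sertoli-gated value was above every stromal one. PSMC1, an ATPase, followed at 1.53 ± 0.20, PSMD14, which removes ubiquitin from the substrate, at 1.51 ± 0.19, PSMG2, a chaperone of alpha-ring assembly, at 1.36 ± 0.22, and PSMB5 at 1.35 ± 0.20. The 2 lower genes were the immune subunits PSMB8 (-3.15 ± 0.27) and PSMB10 (-0.77 ± 0.18). The scale mattered here: TMM, edgeR's correction for RNA composition, shifted log2 differences by 0.51. With library totals 10 genes were higher and 5 lower, where 11.8% and 44.3% of all genes were. PSMA3 (0.47 ± 0.18) and PSMD11 (0.68 ± 0.26) then changed sign to -0.067 and -0.0024.

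Endothelial-gated cells had 22 of 38 genes higher and 1 lower, where 21.2% and 23.3% of all genes were, with a median of 0.51 against -0.08 over all genes. PSMD11, a subunit of the regulatory particle, was 1.30 ± 0.23 higher. Beta-ring PSMB7, with the trypsin-like site, was 1.04 ± 0.17 higher, and PSMB3 0.81 ± 0.15. The immune subunit PSMB8 (1.18 ± 0.17) and both partners of the interferon-linked activator, PSME2 (0.80 ± 0.17) and PSME1 (0.54 ± 0.16), were higher in 6 of 6 libraries. PSMA8 was called lower (-2.27 ± 0.79) on 17 UMIs over all endothelial-gated sums and 20 over the stromal ones. Without replicate 4 of 18 months 13 genes were called, all higher, where 17.8% of all genes were higher and 20.4% lower.

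Mural-gated cells, which carry smooth muscle and pericyte markers, had 13 of 33 genes higher and 2 lower, where 13.6% and 16.3% of all genes were. PSMD7 (0.81 ± 0.14) and PSMD8 (0.76 ± 0.16) of the regulatory particle and the ATPase PSMC5 (0.68 ± 0.14) led. PSMB10 (-1.17 ± 0.17) and PSME4 (-1.21 ± 0.40), the activator PA200, were lower. Without replicate 4 of 18 months 9 genes were called, 8 higher and 1 lower, where 11.1% and 13% of all genes were. The adjusted p of PSME4 in edgeR was then 0.0529.

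Lymphocyte-gated cells had 10 of 36 genes higher and 5 lower, where 21.1% and 28.8% of all genes were. The median was 0.20 against -0.10. Higher were PSMB8 (1.53 ± 0.17), PSMG2 (1.32 ± 0.22), PSMD14 (1.11 ± 0.16), PSMB3 (0.93 ± 0.15), PSME1 (0.68 ± 0.16) and PSME2 (0.47 ± 0.16) among others. Lower were PSME4 (-1.85 ± 0.35), PSMB5 (-1.17 ± 0.33), PSMD3 (-0.70 ± 0.26), PSMB10 (-0.69 ± 0.15) and PSMC3 (-0.46 ± 0.16). By library totals 5 were higher and 5 lower, where 15.7% and 36.7% of all genes were. In macrophage-gated cells 0 of 22 tested genes were called by edgeR or DESeq2, with 1 at an unadjusted p below 0.05 in edgeR, where 16.5% of 1975 genes were higher and 14.8% lower. Only 3 libraries held enough macrophage-gated cells, between 46 and 60.

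**Figure D2:**
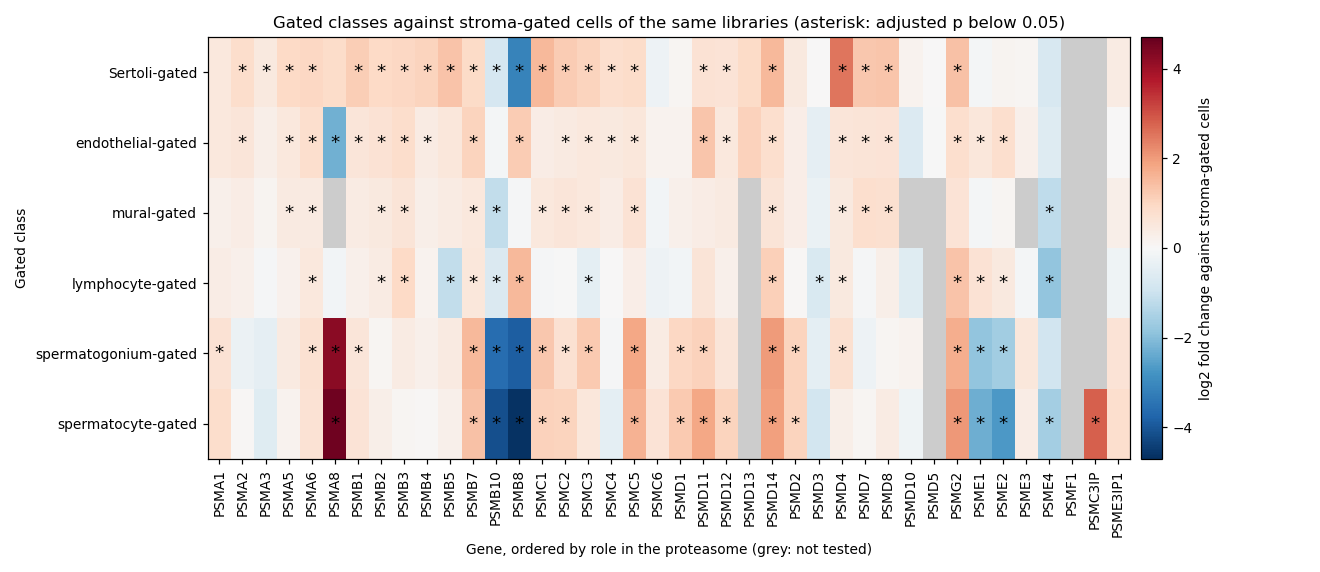
Log2 difference of each proteasome gene between a gated class and stroma-gated cells, by class and role, in colour, with an asterisk for called genes and grey for genes not tested. PSMB8 and PSMB10 lie far below 0 in the germ gates (-3.59 to -4.65) and PSMA8 far above (4.24 and 4.57).

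The largest single differences were in the germ gates, PSMA8 upward and PSMB8 downward. Other genes did not all follow: PSMD4 rose more in Sertoli-gated cells than PSMD14 or PSMG2 in either germ gate. Sertoli-gated and endothelial-gated cells each had 22 of 38 genes higher, more than either germ gate. Spermatogonium-gated cells (5 libraries) had 15 of 36 genes higher and 4 lower, where 30.4% and 25.2% of all genes were, with a median of 0.49 against 0.18. Spermatocyte-gated cells (4 libraries) had 12 of 37 higher and 5 lower, where 26.3% and 19% of all genes were, with a median of 0.37 against 0.35. In the spermatocyte gate the share of higher genes and the median were thus near those of all genes. In the spermatogonium gate both were somewhat above. DESeq2 gave 8 higher and 6 lower in the spermatogonium gate, where 22.1% and 28.8% of all genes were. In the spermatocyte gate 8 genes were called without replicate 4 of 18 months (4 higher, 4 lower), where 14% and 15.4% of all genes were. Without the yak of 4 years 10 were called (5 and 5), where 18.5% and 23% of all genes were.

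The higher genes came from the regulatory particle and from the core, and the difference between these roles was not tested. In the spermatogonium gate, 4 of 6 ATPases and 5 of 9 other regulatory subunits were higher, against 2 of 6 beta-ring and 2 of 5 alpha-ring genes. In the spermatocyte gate the counts were 3 of 6, 5 of 9, 1 of 6 and 0 of 5. PSMC5 had spermatogonium-gated levels of 550, 757, 779, 852 and 807 CPM in replicate 1 of 6 months, replicates 3 and 4 of 18 months, the yak of 4 years and the cattle-yak, against stromal levels of 132, 135, 144, 268 and 164. The groups did not overlap, and the difference was 1.80 ± 0.22. PSMD14 was 1.98 ± 0.25 and 1.94 ± 0.39 higher in the 2 gates, and PSMG2 1.72 ± 0.32 and 2.04 ± 0.47. PSMD14 ran from 152 to 495 CPM in spermatocyte-gated cells and from 36.2 to 75.4 in stroma-gated cells of any library. PSMB7 was the only beta-ring gene higher in both gates (1.52 ± 0.26 and 1.38 ± 0.39). PSMD1, the largest scaffold subunit, was 0.97 ± 0.24 and 1.23 ± 0.36 higher. Under a stricter filter on cells, 3 of the 12 higher genes of the spermatocyte gate were still called (PSMA8, PSMD14 and PSMG2). In that run 14.2% of all genes were higher. There 8 lost their calls, with adjusted p from 0.144 to 0.535, among them PSMB7, PSMC5, PSMD1 and PSMD11 (1.82 ± 0.57 in all kept cells), and PSMC3IP was not tested. In the spermatogonium gate 7 of the 15 were still called, PSMC5, PSMD14, PSMG2 and PSMB7 among them, and 8 were not, PSMD1 among them. There 19.1% of all genes were higher.

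PSMA8 marked the germ gates. Spermatogonium-gated levels were 81.2 and 27.0 CPM at 6 months (13 and 2 UMIs), then 92.2 and 72.3 at 18 months, with 113 in the 4-year yak and 41.7 in the hybrid (6 UMIs). Spermatocyte-gated levels were 121 and 126 CPM at 18 months, with 197 in the 4-year yak and 189 in the hybrid. Stromal levels in the same order were 0.478, 0, 8.80, 1.54, 16.7 and 0 CPM, below every germ-gated value. The differences from stroma were 4.24 ± 0.53 (adjusted p = 4.12e-06) and 4.57 ± 0.63 (adjusted p = 3.7e-05), and both calls held in every alternative run.

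Between the spermatocyte and spermatogonium gates, a contrast added after seeing the data, PSMA8 differed by 0.98 ± 0.38 (unadjusted p = 0.0259, adjusted p = 0.578). In that contrast 0 of 39 proteasome genes and 0 of 9482 genes (0% in either direction) were called by edgeR. There, 3 proteasome genes had an unadjusted p below 0.05, and DESeq2 called 0 of them.

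At 4 years PSMA8 stood at 113 CPM in spermatogonium-gated cells (exact Poisson 95% interval 84.6 to 147), 197 in spermatocyte-gated (185 to 210) and 56.1 in spermatid-gated cells (47.0 to 66.5, 133 UMIs in 769 cells). The intervals, which cover counting error only, did not overlap, but each stage is 1 sum of 1 library. In somatic gates of that library PSMA8 had 47 UMIs in all, at 0 to 71.0 CPM. The highest was the macrophage gate with 7 UMIs (28.6 to 146), and lymphocyte-gated cells stood at 17.3 CPM, 8.78% of the spermatocyte-gated level. MAEL, another germ cell gene, was found in the same lymphocyte-gated cells at 8.59% of its highest class, and TKTL1 at 0.873%. In the other 5 libraries the somatic gates held 4, 4, 32, 11 and 6 UMIs of PSMA8.

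**Figure D3:**
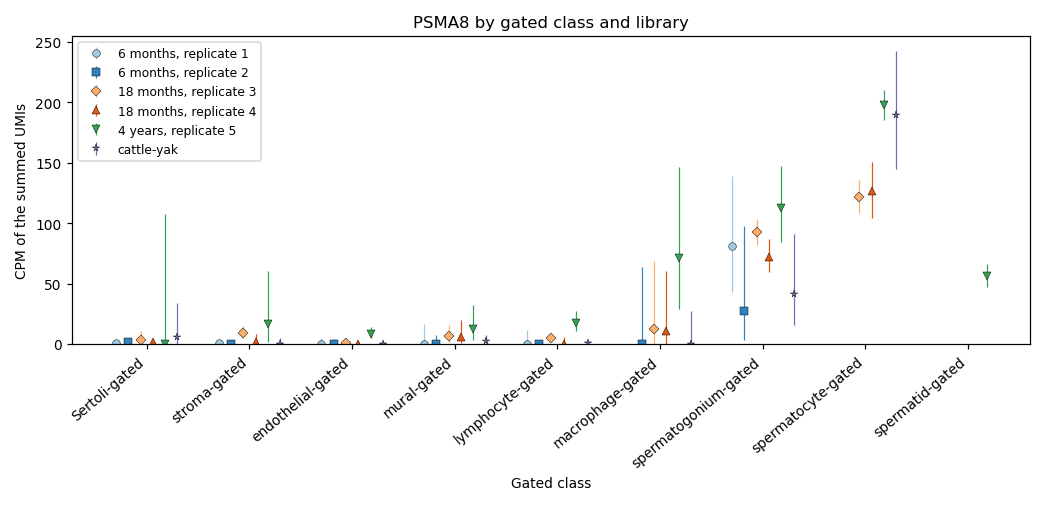
PSMA8 level in CPM by gated class, with 1 point per library and exact Poisson intervals of the counts as bars. Spermatocyte-gated sums lie between 121 and 197 CPM and spermatogonium-gated sums between 27.0 and 113, while somatic gates stay at or below 17.3 except for 1 macrophage-gated sum at 71.0.

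The genes whose levels ran most like PSMA8 were sought over 42 class-by-library sums of at least 30 cells, which share libraries and depth. Pearson's r on log2(CPM + 1) was highest for SMC1B, a meiotic cohesin (0.959), and then for RNF17, REC114, DMRTC2, BOLL, SYCP1, TUBA3D and ZC3H14 (0.935 to 0.927). SYCP1 is itself a marker of the spermatocyte gate, so its likeness is in part set by the gating. Among proteasome genes PSMC5 came highest with 0.854, rank 131 of 11407 genes, followed by PSMC1 (0.785) and PSMD14 (0.753). PSME1 (-0.808), PSME2 (-0.734), PSMB10 (-0.684) and PSMB8 (-0.632) stood at the other end.

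The immune subunits divided the classes. PSMB8 in lymphocyte-gated cells was 86.1 and 283 CPM at 6 months, then 339 and 278 at 18 months, with 54.7 in the 4-year yak and 49.3 in the hybrid. Stromal levels were 34.4, 149, 120, 114, 33.5 and 14.8 CPM in the same order, and Sertoli-gated levels 1.95, 7.85, 16.5, 6.88, 29.2 (1 UMI) and 6.02 (1 UMI). Within each library the lymphocyte gate stood above stroma, although levels overlapped between libraries. Spermatogonium-gated cells had 0 UMIs in both 6-month libraries and in the cattle-yak, and 14.6, 7.82 and 2.08 CPM in the others. These sums are small, so a count of 0 allows up to 18.7 CPM in replicate 1 and 40.5 in replicate 2 of 6 months and 20.9 in the cattle-yak (3 UMIs of the sum). The difference from stroma was -3.87 ± 0.39 in the spermatogonium gate and -4.65 ± 0.62 in the spermatocyte gate.

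PSMB10 did not follow PSMB8 in every class. Stroma-gated cells had the higher PSMB10 levels, 217, 368, 234, 263, 301 and 227 CPM, against 111, 209, 120, 151, 127 and 111 in lymphocyte-gated cells. The stromal value was above the lymphocyte value in each of the 6 libraries, and the lowest stromal value was above the highest lymphocyte value. Germ gates were lower by 3.59 ± 0.31 and 4.15 ± 0.59 on the log2 scale. Spermatocyte-gated levels were 5.52 and 16.8 CPM at 18 months and 15.2 in the cattle-yak, but 83.2 at 4 years (412 UMIs), where spermatid-gated cells had 95.8. In those 4-year spermatocyte-gated cells the macrophage list summed to 106 CPM, against 6.10 to 12.1 in the other libraries, and in the spermatid-gated cells to 1028. The part of those transcripts in the PSMB10 level was not tested.

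As a share of the pair, PSMB8 made up 94.4% of PSMB8 plus PSMB5 UMIs in lymphocyte-gated cells and 78.1% in stroma-gated cells. The difference was 16.2 percentage points ± 13.7 (SD, n = 6), higher in 5 of 6 libraries, with an exact two-sided sign-flip p of 0.0625 (0.0625 adjusted over the 2 pairs). The exception was the yak of 4 years, whose stromal share of 100% rested on 4 UMIs of PSMB8 and 0 of PSMB5. Without it the difference was 21.6 points in 5 of 5 libraries. PSMB10 made up 58.1% of PSMB10 plus PSMB7 in lymphocyte-gated and 77.3% in stroma-gated cells, a difference of -19.3 points ± 5.70, lower in 6 of 6 libraries. Its exact p was 0.03125, the smallest that 6 libraries allow, and 0.0625 adjusted. Median shares elsewhere ran for PSMB8 from 2.78% in spermatogonium-gated cells through 13.9% in Sertoli-gated and 82.2% in endothelial-gated to 84.2% in macrophage-gated cells, and for PSMB10 from 5.23% in spermatocyte-gated cells through 51.1% in Sertoli-gated and 58.6% in endothelial-gated to 62.5% in macrophage-gated cells. The spermatogonium-gated median for PSMB8 rests on small counts. In replicates 3 and 4 of 18 months that share was 15.2% and 13.8%, on 49 and 12 UMIs of PSMB8. Sertoli-gated cells of these libraries had 16.1% and 11.6%. The other spermatogonium-gated sums held 0 or 1 UMIs of PSMB8 and 1 to 17 of PSMB5. Shares compare classes for 1 pair and not amounts of protein, since capture differs between genes.

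**Figure D4:**
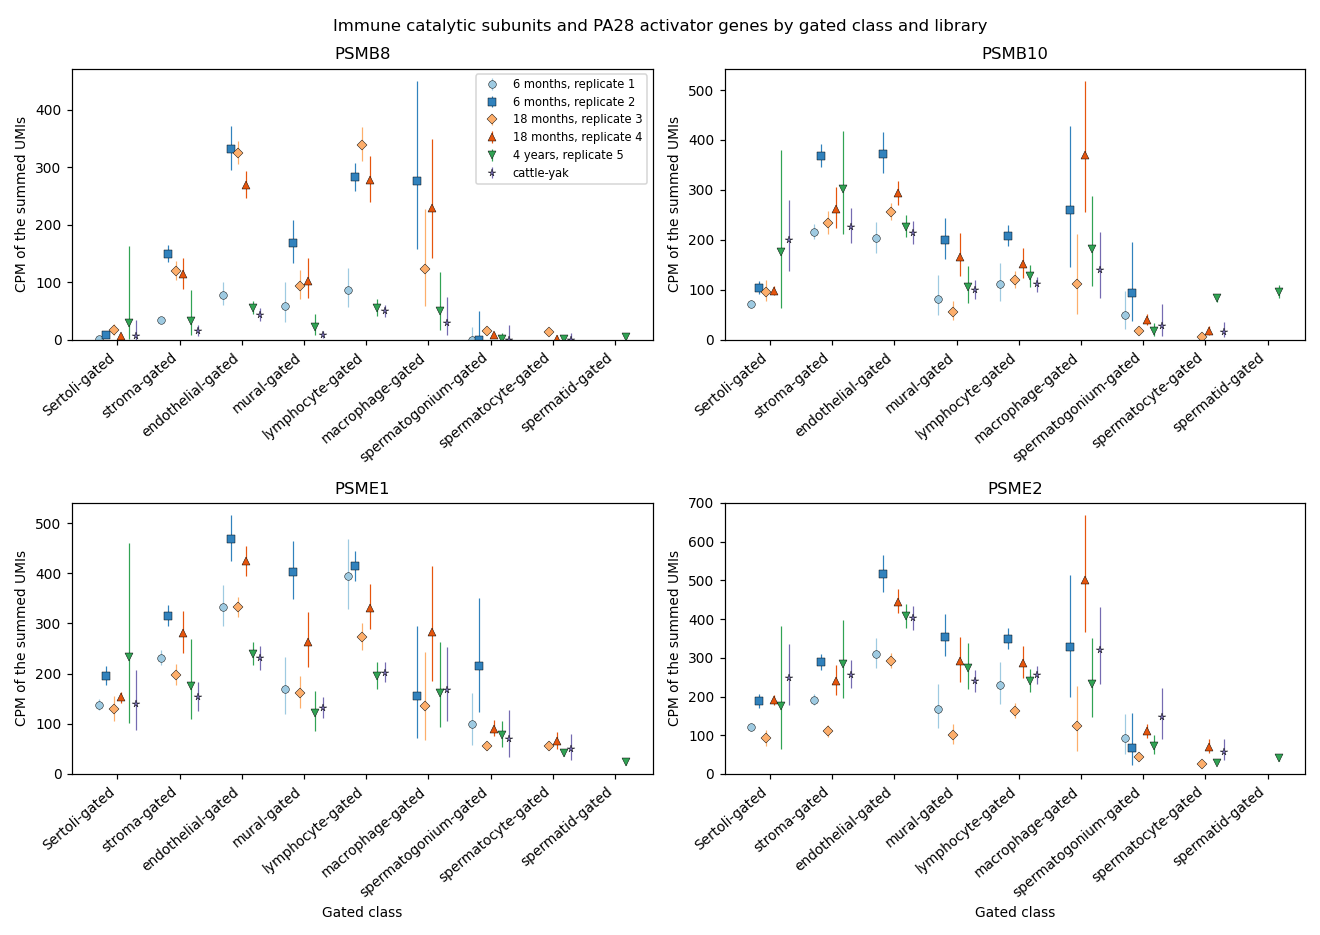
Levels of PSMB8, PSMB10, PSME1 and PSME2 in CPM (linear axes) by gated class, 1 panel per gene and 1 point per library, with exact Poisson intervals of the counts as bars. PSMB8 reaches 339 CPM in lymphocyte-gated cells and at most 14.6 in spermatogonium-gated and spermatocyte-gated cells, while PSMB10 is higher in the stroma-gated than in the lymphocyte-gated sum of every library.

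PSMB8 and PSMB5 also differed between libraries of 1 group. Replicate 2 of 6 months had 6.11 times the PSMB8 of replicate 1 (counting interval 5.44 to 6.89) and 3.11 times the PSMB5 (2.71 to 3.59), while 4 of 40 proteasome genes and 8.08% of all genes were over 2-fold higher. The same order held within stroma-gated cells (4.34 and 3.29 times), endothelial-gated cells (4.23 and 2.91) and Sertoli-gated cells (4.03 and 3.54), although all 3 draw on the same 2 libraries. PSMB8 was also low at 4 years and in the cattle-yak (18.7 and 31.4 CPM over the whole libraries, against 129 and 76.7 in replicates 3 and 4 of 18 months). Replicate 1 of 6 months stood below the cattle-yak as well, so low PSMB8 was not limited to those libraries.

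The activator PSME1-PSME2 was lower in both germ gates. PSME1 in spermatocyte-gated cells was 55.9 and 65.2 CPM at 18 months, with 42.2 in the 4-year yak and 48.8 in the hybrid, against stromal levels of 197, 281, 176 and 153. PSME2 was 25.7, 70.4, 29.3 and 57.9 CPM, against 110, 241, 285 and 256. Every spermatocyte-gated value was below every stromal one in both genes, and the differences were -2.30 ± 0.38 and -2.71 ± 0.38. In the spermatogonium gate they were -1.84 ± 0.25 and -1.64 ± 0.24, and these 4 calls held in every alternative run. In Sertoli-gated cells neither was called (PSME1 -0.09, PSME2 0.13), but by library totals PSME1 was lower (-0.64, adjusted p = 0.0214) and PSME2 stood at -0.40 without a call.

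PSME4 encodes PA200, the activator linked to histone removal in spermatids. It was lower than in stroma in lymphocyte-gated (-1.85 ± 0.35), mural-gated (-1.21 ± 0.40) and spermatocyte-gated cells (-1.61 ± 0.56). The spermatocyte call was lost without either library of 18 months (adjusted p = 0.136 and 0.0814), without the cattle-yak (0.0743) and by library totals (0.0865). Whole-library PSME4 was 5.31 and 3.15 CPM at 6 months, then 19.9 and 7.34 at 18 months, with 20.0 in the 4-year yak and 9.37 in the hybrid. PSMC3IP, grouped as matched by name only, was 2.82 ± 1.11 higher in spermatocyte-gated cells (adjusted p = 0.0484), at 5.15, 12.6, 13.5 and 9.15 CPM on 14, 12, 67 and 3 UMIs. That call was lost without replicate 4 of 18 months (adjusted p = 0.225), without the cattle-yak (0.0618) and in DESeq2 (0.0534). PSME3IP1 was tested against stroma in 6 classes and called in none.

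Partner genes showed class differences of their own. Of 5 tested genes of antigen presentation, 2 were higher and 1 lower in Sertoli-gated cells, where 24.3% and 25.8% of all genes were. Endothelial-gated and lymphocyte-gated cells each had 3 higher and 0 lower (all genes 21.2% and 23.3%, and 21.1% and 28.8%). Mural-gated cells had 0 and 1 (13.6% and 16.3%), the spermatogonium gate 0 and 3 (30.4% and 25.2%), and the spermatocyte gate 0 and 2 (26.3% and 19%). TAP1, the peptide transporter of antigen presentation, was higher in endothelial-gated (1.50 ± 0.20) and lymphocyte-gated cells (1.15 ± 0.20) and lower in Sertoli-gated (-1.75 ± 0.23), spermatogonium-gated (-3.26 ± 0.38) and spermatocyte-gated cells (-3.30 ± 0.53). Of the tested interferon-signal genes, 6 of 7 were lower in Sertoli-gated, 5 of 6 in spermatogonium-gated and 4 of 6 in spermatocyte-gated cells, where 25.8%, 25.2% and 19% of all genes were, and 0 were higher. In endothelial-gated cells 1 of 7 was higher and 2 lower, and in mural-gated cells 0 and 2 of 6. IRF1, a factor that drives interferon-induced genes such as TAP1, was lower by 4.56 and 5.52 on the log2 scale in the germ gates. IFNG, the interferon itself, was 7.42 ± 0.37 higher in lymphocyte-gated cells, where 3 of 8 tested genes of that list were higher and 3 lower.

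Among 13 tested genes of the list of proteasome partners, 9 were higher and 2 lower in the spermatogonium gate and 7 higher and 2 lower in the spermatocyte gate, where 30.4% and 25.2%, and 26.3% and 19%, of all genes were. The same list had 4 higher and 1 lower of 13 in Sertoli-gated cells, and of 12 it had 4 and 0 in endothelial-gated, 4 and 1 in mural-gated and 3 and 3 in lymphocyte-gated cells. ZFAND2A, which binds the regulatory particle under stress, was 4.41 ± 0.63 and 4.63 ± 0.72 higher. AKIRIN2, needed to import proteasomes into the nucleus, was 1.69 ± 0.31 and 2.26 ± 0.41 higher, and POMP, the maturation factor of the core, 0.86 ± 0.22 and 0.90 ± 0.34. NFE2L2, a transcription factor that can induce proteasome genes, was lower in lymphocyte-gated (-1.65 ± 0.20), spermatogonium-gated (-1.78 ± 0.29) and spermatocyte-gated cells (-2.98 ± 0.54).

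Between 6 and 18 months, PSMA8 was the 1 gene of 40 that rose over whole libraries, where 1.89% of all 13553 genes rose and 2.61% were called in either direction. Its levels were 2.74 and 1.46 CPM at 6 months and 50.8 and 22.1 at 18 months, a log2 difference of 2.96 ± 0.46 (adjusted p = 0.0377). Spermatogonium-gated and spermatocyte-gated cells numbered 40 and 13, and 26 and 10, in the libraries of 6 months, and 263 and 149, and 265 and 74, in those of 18 months. Within spermatogonium-gated cells the PSMA8 levels overlapped between the ages (81.2 and 27.0 against 92.2 and 72.3 CPM), and too few cells were gated for a test. The call was lost without replicate 1 (adjusted p = 0.057) or replicate 2 of 6 months (0.168), without replicate 3 of 18 months (0.126) and with all deposited barcodes (0.0555).

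The other 39 genes were not called. TMM shifted log2 differences by -1.03 here. On that scale the 40 genes had a median of -0.35 against -0.04 for all genes, and 2 had an unadjusted p below 0.05. In CPM, 24 of 40 had both libraries of 18 months above both of 6 months, where 61.6% of 16830 genes did, and 0 had them below, where 4.84% did. By library totals 4 rose, PSMA8 (4.10), PSMD2 (1.78), PSMD1 (1.77) and PSMC5 (1.20), where 21.7% of all genes rose. Without replicate 4 of 18 months 14 genes were called, PSMA8 higher and 13 lower, where 8.22% and 7.79% of all genes were. Among the lower were PSME2 (-2.28), PSMB10 (-2.11) and PSME1 (-1.98). On simulated data this comparison recovered 11% of 4-fold and 0% of 2-fold changes, so changes of that size could be missed.

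**Figure D5:**
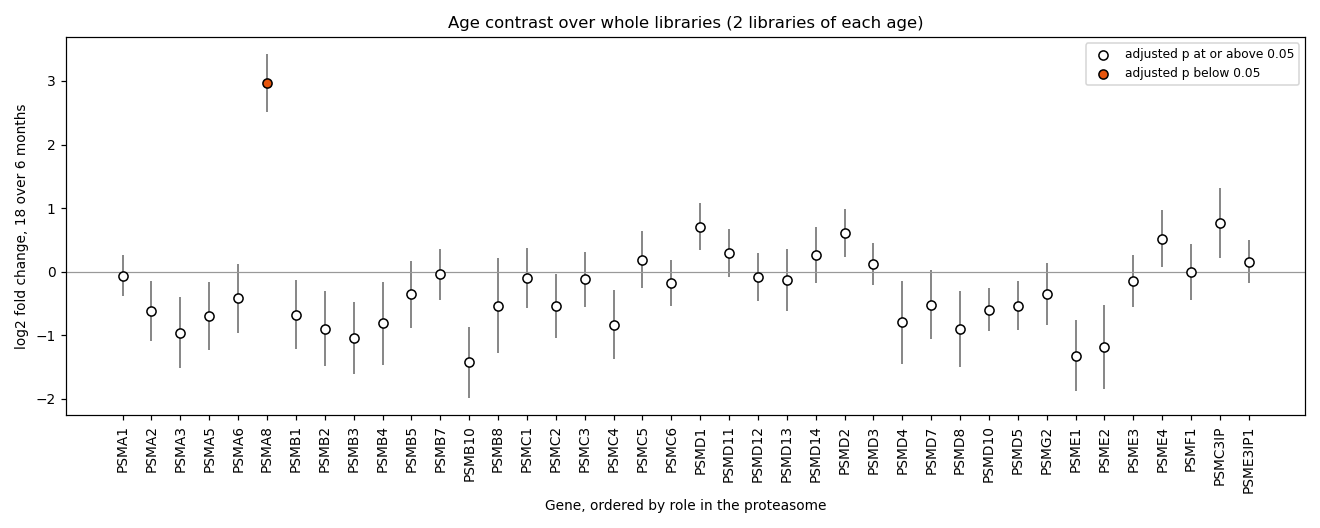
Log2 difference between 18 and 6 months over whole libraries for each proteasome gene, ordered by role, with its standard error as a bar. PSMA8, the 1 filled point, lies at 2.96, and the other genes scatter around a median of -0.35.

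Within gated classes no proteasome gene was called between the ages by edgeR or DESeq2. This covered 37 genes in Sertoli-gated cells (0.564% of all genes called), 36 in stroma-gated (0.714%), 35 in endothelial-gated (0.256%), 31 in mural-gated (0.777%) and 32 in lymphocyte-gated cells (0.053%). At an unadjusted p below 0.05 in edgeR there were 2, 2, 0, 0 and 0. Without replicate 4 of 18 months the counts of called genes were 11, 13, 0, 5 and 1, where 13%, 11.1%, 5.95%, 10.1% and 5.39% of all genes were called. Lower were 9 of the 11, 11 of the 13, all 5 and the 1. Those fits compare 1 library of 18 months with 2 of 6 months and assume that it varies like them. In simulated Sertoli-gated sums 21.6% of 4-fold and 1.06% of 2-fold changes were recovered.

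The cattle-yak library had 2 of 40 genes over 2-fold above the yak of 4 years and 13 over 2-fold below, where 16.3% and 34.2% of all 13768 genes were. There is 1 library a group, so no test was possible. PSMA8 stood at 11.0 against 105 CPM, 0.105 times the level (counting interval 0.0834 to 0.131). PSMC3IP had 0.153 times the level (8 against 93 UMIs), PSMB5 0.278 times and PSME3, the nuclear activator PA28-gamma, 0.36 times. PSME2 was 2.09 times as high (1.97 to 2.23) and PSMD10, a chaperone of the regulatory particle, 2.00 times on 53 against 47 UMIs. The cattle-yak held 42 spermatocyte-gated and 0 spermatid-gated cells, the 4-year yak 573 and 769.

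Within spermatocyte-gated cells PSMA8 stood at 189 CPM in the cattle-yak (145 to 242, 62 UMIs) and 197 at 4 years (185 to 210), with overlapping intervals. There 4 of 38 genes were over 2-fold higher and 10 lower, where 30.1% and 27.4% of all genes were. PSMD1 was 2.03 times as high (1.74 to 2.35) and PSMC6 2.70 times (1.75 to 4.03), while PSMC1 (0.339), PSMD8 (0.455) and PSMB4 (0.461) were lower, each on 29 or more UMIs of the cattle-yak. PSMB10 was lower too, at 0.183 times on 5 UMIs. The stages held by the gate differed between these libraries by their markers: the spermatid list summed to 76.2 CPM in the cattle-yak and 887 at 4 years (6 and 1 of its 8 markers at 0), the spermatogonium list to 1363 and 554, and the spermatocyte list to 3148 and 1682. Their part in the ratios was not tested. In lymphocyte-gated cells, with 1208 and 673 cells, 1 of 33 genes was over 2-fold higher and 1 lower, where 8.19% and 14.9% of all genes were.

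Spermatid-gated cells of the 4-year yak, the haploid stage by their markers, had 17 of 38 genes over 2-fold below the spermatocyte-gated cells of the same library and 4 above, where 36% and 25.5% of all genes were. The median ratio was 0.518 against 0.743 for all genes. Subunits of the regulatory particle were among the lowest: PSMD1 at 0.125 times (0.0998 to 0.155), PSMD2 at 0.159 and PSMD11 at 0.164. PSMA8 was at 0.284 times and PSMC3IP at 0.0312 times (1 against 67 UMIs). The alpha subunit PSMA6 went the other way, at 1652 CPM against 459 (3.60 times, 3.42 to 3.79). The other genes over 2-fold higher were PSME3 (4.36 times), PSME4 (2.09 times) and the inhibitor PSMF1 (2.24 times, on 30 against 28 UMIs). These ratios come from 1 library and have no replicate check.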

How the data were processed

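The deposited matrices hold raw UMI counts per gene and barcode, not normalised, per the file headers written by Cell Ranger 5.0.0 (the submitters' processing notes give 2.1.1). No source used here names the genome build. Symbols come from the files, which give one for 15722 of 26961 features, and since 0 identifiers were found in the reference table no position or sequence is printed. A barcode was kept from 300 genes up and to 20% mitochondrial UMIs. Scrublet's own threshold marked 269 and 181 barcodes at 6 months and 1, 0, 0 and 0 in the others, so the top-scoring 0.8% per 1000 barcodes were removed by rank. Counts were summed per library and class and tested with edgeR 4.0.16 (R 4.3.3; TMM, filterByExpr, quasi-likelihood), at an adjusted p below 0.05 over all genes. A class was tested with at least 30 cells in every library of the age comparison, or in at least 3 libraries of the comparison with stroma. CPM uses the sum of the class in that library. Ratios have exact conditional intervals, levels exact Poisson intervals (95%). The precision is set by between 7791257 and 17300322 kept UMIs per library. The tests were checked on simulated counts.

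The members, lists and tests were chosen with earlier results of these data known. Of 3 ways to score the gate, the one that kept most cells was used, with values of PSMA8, PSMC3IP and PSMB8 in view. The other 2 were run as alternatives. All members could be named. Values by library were to be given for the catalytic, immune, testis and activator genes and for up to 10 called members per comparison, largest difference first. Up to 10 called partner genes could be named, and the 8 genes most like PSMA8 (at least 200 UMIs, with a symbol). The contrast of the germ gates, ratios within classes and between replicates, the ratio of spermatids to spermatocytes, and the genes MAEL and TKTL1 were added after the data were seen. Alternatives were DESeq2 1.42.0, library totals, no filter on low counts, stricter cells, gates and doublet handling, no block, and leaving out each library. The pair of PSMB9 and PSMB6 was not analysed here.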

Additional observations from a re-analysis of the deposited data

Results flagged for a closer look

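Some genes had both libraries of 18 months on one side of both libraries of 6 months in 1 class and on the other side in another class. For each of these pairs of classes the difference was not tested, and none of the single age differences was called by edgeR. Values are log2 ratios, 18 over 6 months, of the mean CPM plus 1, without TMM. In the tests TMM shifted log2 differences by -0.729 in Sertoli-gated and -0.355 in stroma-gated cells. It shifted them by -0.151 in mural-gated, -0.132 in lymphocyte-gated and -0.099 in endothelial-gated cells. The sign of a value, and so an opposite order between classes, can therefore depend on the scale. The part of that scaling was not tested. PSMD10, a chaperone of the regulatory particle, had 0.558 in Sertoli-gated and 1.046 in lymphocyte-gated cells but -0.681 in endothelial-gated cells. The lymphocyte value rests on 0 UMIs of PSMD10 in replicate 1 of 6 months, and without that library it was 0.24. The ATPase PSMC1 had 0.581 in mural-gated and -0.253 in lymphocyte-gated cells. The ATPase PSMC5 had 0.115 in stroma-gated and 0.288 in mural-gated but -0.175 in endothelial-gated cells. The deubiquitinase PSMD14 had 0.505 in Sertoli-gated and 0.195 in stroma-gated but -0.636 in endothelial-gated cells. PSMD7 had 0.478 in Sertoli-gated and -0.290 in mural-gated cells. PSME3IP1 had 0.698 in Sertoli-gated, 0.633 in stroma-gated and 0.338 in endothelial-gated but -0.347 in mural-gated cells.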

How the results depend on the processing

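Of 241 alternatives to the main counts, shares and levels, 211 were scored as the same and 30 were not, and the causes were not tested. Counts were the same when within 1.5 times, and PSMA8 levels when inside the counting interval of the main level. Shares were the same when sign and side of the threshold did not change. Share tests on 5 libraries had a smallest p of 0.0625 (sign-flip test), so only a change of sign could have altered their score. Over whole libraries the age comparison gave 4 called genes by library totals, 0 with all barcodes and 0 to 14 without single libraries. Without single libraries the age comparison within classes gave 0 to 11 genes in Sertoli-gated, 0 to 13 in stroma-gated, 0 to 5 in mural-gated and 0 to 1 in lymphocyte-gated cells. Without the filter on low counts stroma-gated cells gave 1, where 1.97% of all genes were called. Over whole libraries 22.3% of all genes were called by library totals and 1.01% with all barcodes. Against stroma, library totals gave 15 in Sertoli-gated cells, where 56.1% of all genes were called. No filter on low counts gave 15 in endothelial-gated, 5 in mural-gated and 1 in macrophage-gated cells, where 24.8%, 11.7% and 7.31% of all genes were called. Stricter cells gave 11, 4, 9, 11 and 7 in endothelial-gated, mural-gated, lymphocyte-gated, spermatogonium-gated and spermatocyte-gated cells. Of all genes, 38.9%, 19.3%, 51.7%, 41.7% and 32.6% were called in these classes. Leaving out single libraries gave 13 to 25 in endothelial-gated, 9 to 15 in mural-gated and 8 to 13 in spermatocyte-gated cells. The shares of all genes called were 37.9% to 47.9%, 24.1% to 31.2% and 29.4% to 44.3%. Without the library block, which pairs classes of the same library, 46 of 110 single calls remained. The counts were then 13 in Sertoli-gated, 4 in endothelial-gated, 2 in mural-gated, 4 in lymphocyte-gated and 11 in spermatocyte-gated cells. Of all genes, 38.3%, 33.6%, 14.7%, 39.9% and 35.5% were called in these classes. No paired analysis was possible because the libraries of 6 and 18 months share no replicate number. Of 114 single calls, 36 held in every alternative. By library totals PSMA3 (-0.067) and PSMD11 (-0.0024) changed sign in Sertoli-gated cells. A gate with a lead of 2 markers, added after seeing the data, gave PSMA8 at 211 CPM in spermatocyte-gated cells of 4 years. Depth limits what small sums can show: in spermatogonium-gated cells of replicate 2 of 6 months, 0 UMIs of PSMB8 allow up to 40.5 CPM.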
